A study of Mus musculus with 212 samples.

Results

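The miR-26 family was followed through the brains of the LXS mice, recombinant inbred strains whose parents are Inbred Long Sleep, ILS, and its short-sleeping counterpart Inbred Short Sleep, ISS, together with the 3 protein-coding genes whose introns hold its precursors. The 6 members were taken by name: mmu-miR-26a-5p, mmu-miR-26b-5p and mmu-miR-26b-3p of 881 small RNA features, and Ctdspl, Ctdsp1 and Ctdsp2 of 27123 genes. Naive mice gave RNA from the right hemisphere of the brain, and the small RNA table holds 1 value deposited by the authors for each of 59 LXS strains, so no replicate spread within a strain could be given. The labels list 196 libraries of these strains, 2 to 7 a strain, in 5 sequencing batches. They tag some libraries HIGH, MED or LOW, and the meaning of the tag was not given in the sources used here. A strain took the tag of any of its libraries, which gave 8 HIGH, 9 MED and 10 LOW strains, against 32 with none. LXS80 and LXS41 had untagged libraries as well. The 196 libraries carry 176 replicate letters, 2 to 3 a strain. Some replicates therefore have more than 1 library, and each such library is counted in its batch. In the mRNA file 6 ILS, 6 ISS, 6 LXS80 and 5 LXS41 profiles were used, from strains with no more profiles than labelled libraries. That limit counts repeat libraries of a replicate too. LXS80 and LXS41 have 3 replicate letters each, fewer than their profiles, so the limit does not match profiles to animals. The tissue and platform of those profiles, and the animals behind them, were not given in the sources used here, so their p-values measure only the spread between profiles. The planned correlation of the hosts with the miRNAs over strains was not made. Under that limit on profiles, LXS80 and LXS41 alone had both a miRNA value and mRNA profiles in use.

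A microRNA is cut from a hairpin precursor into a 5p and a 3p arm, one of which usually enters an Argonaute protein and guides it to messenger RNAs that pair with the seed, bases 2 to 8 of the arm. In mammals the miR-26 precursors lie in introns of the Ctdsp genes, which encode small phosphatases of the RNA polymerase II C-terminal domain. These phosphatases act with the repressor REST, which keeps neuronal genes silent outside neurons and in neural progenitors, and work in zebrafish described miR-26b and its own host as a pair in neuronal differentiation.

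The 5 mature arms of the family are shown because the seed sets which members could share targets. The seed is in capitals, and sequences and positions are those of RefSeq on GRCm38.p6.
mmu-miR-26a-5p: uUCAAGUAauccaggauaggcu
mmu-miR-26b-5p: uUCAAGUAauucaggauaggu
mmu-miR-26b-3p: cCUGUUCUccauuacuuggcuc
mmu-miR-26a-2-3p: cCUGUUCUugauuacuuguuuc
mmu-miR-26a-1-3p: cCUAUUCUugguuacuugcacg
The 5p arms shared the seed UCAAGUA, which no other name among 1679 mature mouse miRNAs in the table carried. Counted from the 5′ end, they differed by C11U and C21U (miR-26a base first) over 21 compared positions, and miR-26a-5p was 22 nt long against 21 nt for miR-26b-5p. Of the 3p arms, miR-26b-3p and miR-26a-2-3p had the same seed, CUGUUCU, and the 3p arm of the other miR-26a precursor had CUAUUCU. The seed CUGUUCU was not particular to the family, since miR-6932-3p and miR-7039-3p carried it too.

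The precursors are shown with both arms in capitals, because the arm ratio and the host gene are read from them.
Mir26b: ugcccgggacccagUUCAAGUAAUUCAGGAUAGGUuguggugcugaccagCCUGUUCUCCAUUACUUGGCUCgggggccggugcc
Mir26a-1: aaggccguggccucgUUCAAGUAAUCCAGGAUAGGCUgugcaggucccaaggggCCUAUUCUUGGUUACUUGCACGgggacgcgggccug
Mir26a-2: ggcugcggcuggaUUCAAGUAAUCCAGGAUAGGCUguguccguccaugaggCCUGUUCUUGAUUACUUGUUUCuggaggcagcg
Mir26b, at chr1:74394310-74394394 on the plus strand, lay within the span of Ctdsp1. Mir26a-1, at chr9:119031796-119031885 on the plus strand, lay within Ctdspl, and Mir26a-2, at chr10:126995530-126995613 on the plus strand, lay within Ctdsp2. Both miR-26a precursors give the same 5p arm, so the deposited miR-26a-5p value joins what came from Ctdspl and from Ctdsp2.

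miR-26a-5p was among the most abundant small RNAs of these brains. Its normalized value averaged 1191988 over the 59 strains, the second highest mean (rank 2 of 881), and it made up 8.72% of the summed value of a strain (SD over strains 1.36, n = 59), with 5.90% in LXS43 and 11.1% in LXS39 at the ends. Its lowest value was 758989, in LXS19, its median 1207073 and its highest 1522540, in LXS16, a 2.01-fold range. miR-26b-5p averaged 59212, rank 37 of 881 and 0.433% of a strain's sum, with a lowest value of 34418 in LXS19, a median of 59219 and a highest value of 85700 in LXS8. The 5p arms therefore gave one seed at unequal normalized values: miR-26a-5p was 20.3-fold above miR-26b-5p (SD 2.88 over 59 strains), and the ratio ran between 14.8 in LXS90 and 29.6 in LXS86. Ranks, ratios and arm shares here compare normalized values, and whether these measure amounts alike for different sequences was not tested. The 5p arms differ at 2 of 21 compared positions, and how reads were divided between them was not given.

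The 3p arms were rare in every strain. miR-26b-3p averaged 219, rank 336 of 881, with a lowest value of 90.7 in LXS34, a median of 233 and a highest value of 364 in LXS64. It made up 0.376% of both miR-26b arms (SD 0.113, n = 59), and the median strain held 261 times as much 5p as 3p. miR-26a-2-3p averaged 3.96 and miR-26a-1-3p averaged 2.85, ranks 785 and 841 of 881, and together they were 0.000606% of all miR-26a arms. Both fell under the mean value of 10 asked of a feature before testing, which 647 of 881 features met, so they enter no test given here.

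**Figure D1:**
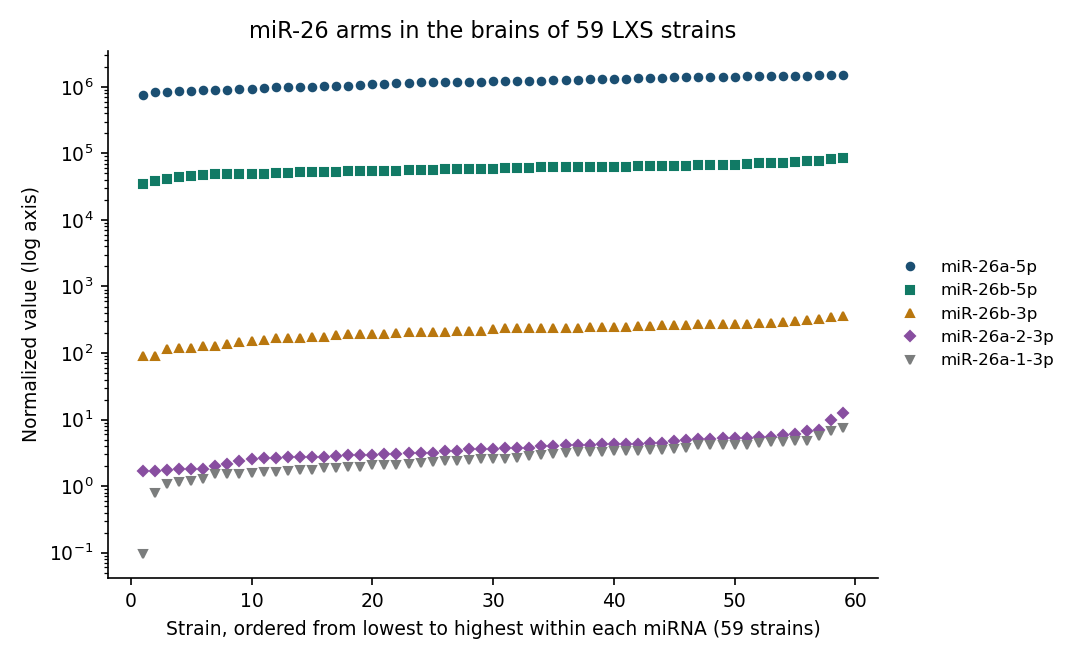
Normalized value of the 5 miR-26 arms on a log axis, with the 59 strains ordered from lowest to highest within each arm, 1 point a strain. miR-26a-5p stays between 758989 and 1522540, miR-26b-5p between 34418 and 85700 and miR-26b-3p between 90.7 and 364, and the 3p arms of miR-26a lie near or under 10.

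The 5p arms varied less between strains than most small RNAs, and miR-26b-3p did not. On the scale log2(normalized value + 1), the SD over 59 strains was 0.26 for miR-26a-5p, 0.26 for miR-26b-5p and 0.46 for miR-26b-3p, where the median of the 647 tested features was 0.42. Of those features 14.99% had a lower SD than miR-26a-5p, 13.9% a lower SD than miR-26b-5p and 55.6% a lower SD than miR-26b-3p. Abundant features varied less in general: the 101 features with a mean of at least 10000 had a median SD of 0.34.

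Sequencing batch moved with all 3 tested arms, and it did so differently for the arms of the single miR-26b precursor. The batch of a strain could be read only as the share of its libraries in each batch, and limma's F test over these shares, with Benjamini-Hochberg adjustment over 647 features, called 561 features, 86.7% of those tested, so a call was the usual outcome. The shares accounted for 64.7% of the variance of miR-26a-5p over strains (adjusted p = 3.88e-11), 34.2% for miR-26b-5p (adjusted p = 0.000178) and 72.9% for miR-26b-3p (adjusted p = 7.37e-14), against a median of 41.0% over all tested features. Of the tested features 95.1% had a lower share of variance by batch than miR-26b-3p.

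The direction of the batch differences separated the arms. The fitted log2 level of miR-26a-5p for a strain with all libraries in 1 batch was 20.08 ± 0.10 (SE, n = 59 strains in the fit) in batch 1, 19.60 ± 0.08 in batch 2, 20.15 ± 0.06 in batch 3, 20.49 ± 0.07 in batch 4 and 20.29 ± 0.05 in batch 5, a 1.85-fold span. For miR-26b-5p it was 15.87 ± 0.14, 15.43 ± 0.11, 15.88 ± 0.08, 16.16 ± 0.09 and 15.81 ± 0.06 in batches 1 to 5, a 1.66-fold span. Both 5p arms were thus lowest in batch 2 and highest in batch 4. miR-26b-3p was at 7.82 ± 0.16, 8.15 ± 0.12, 6.72 ± 0.10, 7.87 ± 0.10 and 8.09 ± 0.07 in batches 1 to 5, a 2.69-fold span with its lowest level in batch 3. Its highest levels were those of batch 2, where the 5p arms were lowest, and batch 5, and these lay within their SEs of each other.

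**Figure D2:**
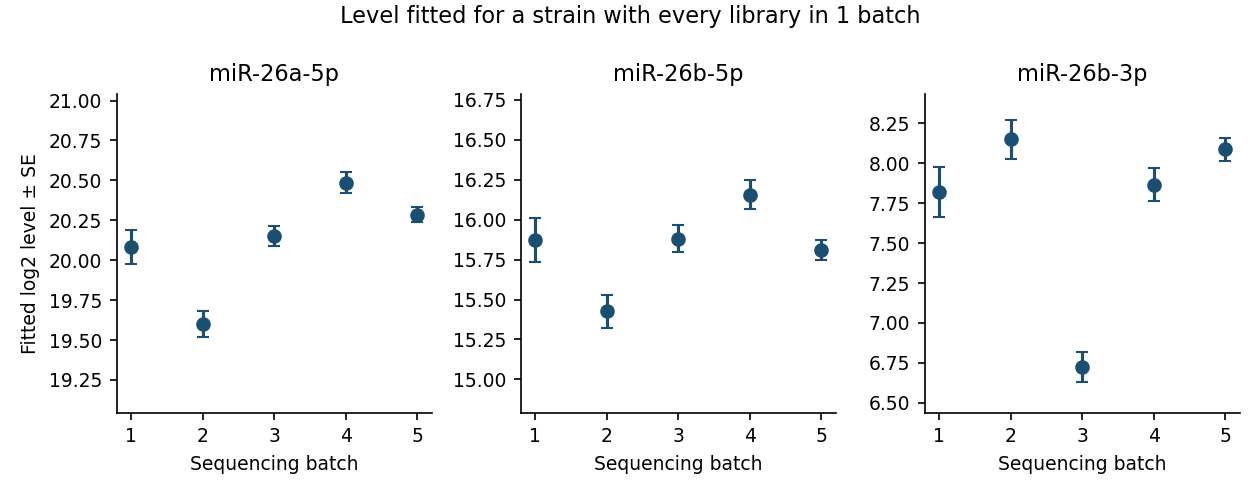
Fitted log2 level ± SE of miR-26a-5p, miR-26b-5p and miR-26b-3p for a strain with every library in 1 sequencing batch, by batch, each panel spanning the same range of log2 units. The 5p arms are lowest in batch 2 and highest in batch 4, and miR-26b-3p drops to 6.72 in batch 3 against 8.15 in batch 2.

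The ratio of the miR-26b arms therefore followed the batch. The fitted ratio of 5p to 3p was 266, 155, 571, 313 and 211 in batches 1 to 5, a 3.69-fold span, and the batch shares accounted for 69.8% of the variance of its log2 value (permutation test over strains, p = 1e-05, the smallest that 100000 permutations can give). The ratio of miR-26a-5p to miR-26b-5p moved less, with fitted values of 18.5, 18.1, 19.3, 20.1 and 22.2 and 22.3% of the variance (permutation p = 0.0083). After removal of the batch shares the SD over strains was 0.16 for miR-26a-5p, 0.21 for miR-26b-5p and 0.24 for miR-26b-3p on the log2 scale.

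No strain had more than 75% of its libraries in batch 2, so the fitted values of that batch are extrapolated. Of the 15 strains with all libraries in 1 batch, those of batches 3 and 5 could be compared without a fit. miR-26b-3p lay between 90.7 and 116 in the 3 strains of batch 3 and between 192 and 364 in the 8 strains of batch 5, and these groups did not overlap. In the same strains miR-26b-5p was between 54671 and 70734 in batch 3 and between 40627 and 67502 in batch 5, so the 5p arm of that precursor overlapped. How many other features did not overlap between these groups was not counted.

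Most ends of the arms' ranges leaned to certain batches, the low end of miR-26b-5p less so. Batch 2 held 0% of the libraries of untagged strains and 35.7% to 41.2% of those of HIGH, MED or LOW strains. For batch 3 these shares were 6.32% and 35.3% to 50%. They were 32.6% and 7.14% to 8.82% for batch 4, and 54.7% and 5.88% to 10.3% for batch 5. miR-26a-5p was lowest in LXS19, LXS92, LXS43, LXS3 and LXS90, whose 19 libraries included 9 of batch 2 and none of batch 4, and highest in LXS16, LXS42, LXS39, LXS73 and LXS96, with 10 of 15 libraries in batch 4. miR-26b-5p was lowest in LXS19, LXS24, LXS86, LXS32 and LXS13, whose 18 libraries fell 5 in batch 2, 7 in batch 3, 1 in batch 4 and 5 in batch 5, and highest in LXS8, LXS102, LXS39, LXS98 and LXS16, again with 10 of 15 libraries in batch 4. miR-26b-3p was lowest in LXS34, LXS66, LXS103, LXS13 and LXS114, with 13 of 15 libraries in batch 3, and highest in LXS64, LXS87, LXS78, LXS101 and LXS3, with 11 of 16 libraries in batch 5. Whether a strain's extreme value belongs to the strain or to its batches cannot be told apart, since the table holds 1 value a strain.

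The HIGH, MED and LOW tags of the libraries were the only grouping of strains taken from the labels. No feature passed in HIGH minus LOW strains (limma with the batch shares as covariates, 0 of 647, 0% called, with 26 features at an unadjusted p under 0.05). miR-26a-5p ran from a lowest value of 864218 through a median of 1037032 to a highest value of 1330413 in HIGH strains, against 758989, 1002145 and 1214952 in LOW strains, and these ranges overlapped. Its difference was 0.07 (SE 0.08) in log2 units, that of miR-26b-5p 0.09 (SE 0.10) and that of miR-26b-3p -0.08 (SE 0.12), each with an adjusted p of 0.981.

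Tagged and untagged strains differed in level, and also in batch. miR-26a-5p averaged 1066814 ± 166260 in HIGH strains (SD, n = 8), 994837 ± 139376 in MED strains (n = 9) and 995575 ± 134665 in LOW strains (n = 10), against 1340108 ± 121262 in untagged strains (n = 32). miR-26b-3p averaged 162 ± 65.2 in HIGH, 213 ± 43.0 in MED and 188 ± 67.0 in LOW strains, against 245 ± 51.6 in untagged strains. Batch 2 held 35.7% of the libraries of HIGH strains, 41.2% of MED and 38.5% of LOW strains, against 0% of untagged strains, of whose libraries 54.7% came from batch 5. The tag and the batch cannot be told apart in these levels, and no test of tagged against untagged strains was made.

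Across strains the levels of the 5p arms, which share a seed, were correlated. Over 59 strains, Pearson's r between miR-26a-5p and miR-26b-5p was 0.71 and Spearman's rho 0.70 (permutation p = 1e-05 each, two-sided, the smallest the permutations can give; 3e-05 for r after adjustment over 3 pairs). Without LXS19 and LXS92, the 2 strains farthest from the median, r was 0.67. After removal of the batch shares r was 0.57 and rho 0.50 (permutation p = 1e-05 and 5e-05). Within groups of strains from like batches the relation was weaker and did not pass: r was 0.37 in the 27 strains from batches 4 and 5 alone (permutation p = 0.059), 0.54 in the 13 strains from batches 2 and 3 alone (permutation p = 0.059) and 0.22 in the 8 strains of batch 5 alone (exact permutation p = 0.68).

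Many other small RNAs moved with miR-26a-5p as well. In limma's fit with miR-26a-5p as a covariate beside the batch shares, 312 of 646 features passed, 48.3%, and 150 of them, 23.2% of those tested, rose with it. miR-26b-5p was one of these, with a slope of 0.76 log2 units for each log2 unit of miR-26a-5p (SE 0.15, adjusted p = 5.03e-05).

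The arms of the single miR-26b precursor had a lower correlation over all strains, and the difference between the pairs was not tested. Pearson's r between miR-26b-5p and miR-26b-3p was 0.21 (permutation p = 0.11, 0.17 adjusted over 3 pairs) and Spearman's rho 0.31 (permutation p = 0.016), and r without LXS19 and LXS24 was 0.23. After removal of the batch shares r was 0.32 (permutation p = 0.012, 0.018 adjusted over 3 pairs). It was 0.34 within batches 4 and 5 (27 strains, permutation p = 0.085), 0.58 in the 8 strains of batch 5 alone (exact permutation p = 0.11), above the 0.22 of the 5p pair there, and -0.092 within batches 2 and 3 (13 strains, permutation p = 0.76). In limma's fit with batch shares miR-26b-3p had a slope of 0.37 on miR-26b-5p (SE 0.15, adjusted p = 0.0432), where 270 of 646 features, 41.8%, passed and 144 of them, 22.3%, rose. The same pair with miR-26b-3p as the covariate did not pass (miR-26b-5p slope 0.28, SE 0.11, adjusted p = 0.122), and there 53 of 646 features, 8.2%, passed and 44, 6.81%, rose.

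miR-26a-5p and miR-26b-3p, which come from different precursors and have different seeds, had a correlation of opposite sign with and without the batch shares. Their r was 0.17 over 59 strains (permutation p = 0.19, 0.19 adjusted over 3 pairs; rho 0.23) and 0.22 without LXS19 and LXS92, but -0.24 after removal of the batch shares (permutation p = 0.066). It was -0.49 in the 27 strains from batches 4 and 5 alone (permutation p = 0.0083, 0.025 adjusted over 3 pairs) and -0.37 in the 13 from batches 2 and 3 alone (permutation p = 0.22). With the batch shares in limma's fit the slope of miR-26b-3p on miR-26a-5p did not pass (-0.36, SE 0.20, adjusted p = 0.138).

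**Figure D3:**
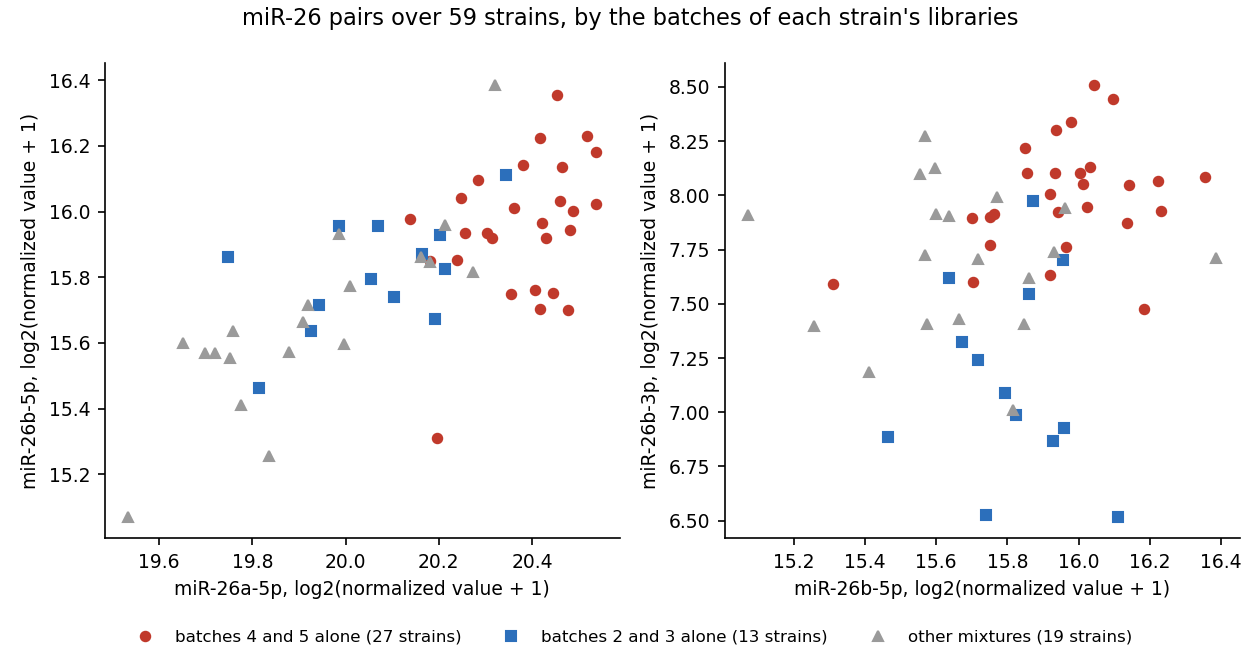
miR-26b-5p against miR-26a-5p (left) and miR-26b-3p against miR-26b-5p (right) over 59 strains, both axes as log2(normalized value + 1), 1 point a strain, coloured by the batches of its libraries. On the left the points rise together (r = 0.71) with batch 4 and 5 strains at the top right, and on the right (r = 0.21) the strains of batches 2 and 3 alone have a median of 135 miR-26b-3p in normalized value, with a range of 90.7 to 250, against 256 in those of batches 4 and 5 alone.

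The features whose pattern was most like each arm differed between the arms. Likeness was Pearson's r over 59 strains after removal of the batch shares, among 399 other features with a mean of at least 100, and is a description with no test, since all values of a strain share its libraries. miR-26a-5p was most like miR-124-3p, the abundant miRNA of neurons, with r = 0.78, and then like miR-582-5p (r = 0.77), miR-148b-5p (r = 0.76), miR-27b-3p (r = 0.75) and miR-380-3p (r = 0.74), with miR-26b-5p at place 37. miR-26b-5p was most like let-7g-5p (r = 0.69), miR-191-3p (r = 0.69), miR-126a-5p (r = 0.67), miR-872-5p (r = 0.65) and miR-362-3p (r = 0.64), with miR-26a-5p at place 18. miR-26b-3p was most like miR-188-5p (r = 0.73), miR-872-3p (r = 0.69), miR-339-3p (r = 0.69), miR-369-3p (r = 0.67) and miR-138-5p (r = 0.64), with its partner arm miR-26b-5p at place 43 and miR-26a-5p at place 360.

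Some cell type markers among the miRNAs moved with the 5p arms, and others of the same cell types did not. The 12 of 15 listed marker miRNAs that were matched were above 0 in every strain: neuronal miR-124-3p ran between 42496 and 135291, and hepatic miR-122-5p between 0.899 and 82.8. After removal of the batch shares their r with miR-26a-5p ran between -0.23 for miR-219a-2-3p of oligodendrocytes and 0.78 for miR-124-3p, with 0.70 for miR-338-3p of oligodendrocytes and 0.02 for neuronal miR-9-5p. It was 0.62 for miR-34c-5p, 0.32 for miR-34b-5p and -0.04 for miR-200a-3p of ciliated and choroid plexus cells, 0.47 for endothelial miR-126a-3p and 0.42 for erythroid miR-451a. For miR-26b-5p the 12 values ran between -0.10 and 0.56, and for miR-26b-3p between -0.19 and 0.17. In bulk tissue fewer cells of a type and less RNA per cell cannot be told apart, and the part of cell composition in the relations among the miR-26 arms was not tested.

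The host genes differed little between the parents. Levels of different genes are not compared, because the sources used here did not say whether the deposited log2 values are scaled by gene length. Ctdspl, host of Mir26a-1 and known as a growth-restraining phosphatase of the retinoblastoma protein, had a lowest log2 value of 8.28, a median of 8.42 and a highest value of 8.61 in ILS profiles, against 8.36, 8.48 and 8.52 in ISS profiles, and the groups overlapped. Ctdsp2, host of Mir26a-2, had 9.09, 9.20 and 9.26 in ILS profiles, against 9.12, 9.22 and 9.38 in ISS profiles. Ctdsp1, host of Mir26b, read near the filter level of 6 and below the profile medians of 7.11 to 7.24 in every profile, so its detection is uncertain. It had 6.24, 6.50 and 6.74 in ILS profiles, against 6.05, 6.47 and 6.85 in ISS profiles. Each ILS range thus overlapped the ISS range of the same gene.

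None of the 3 hosts passed in ILS minus ISS, where limma with adjustment over 20617 genes called 1567 genes, 7.6%, of which 698 (3.39%) were higher and 869 (4.21%) lower in ILS. The log2 difference was -0.03 for Ctdspl (SE 0.05, adjusted p = 0.800), 0.03 for Ctdsp1 (SE 0.13, adjusted p = 0.934) and -0.04 for Ctdsp2 (SE 0.05, adjusted p = 0.687), and the median difference of all genes tested was -0.01. At an unadjusted p under 0.05 the count of hosts was still 0. Ctdsp1 was the least even: its 23 profiles spanned 1.75-fold, where those of Ctdspl spanned 1.36-fold and those of Ctdsp2 1.32-fold. The column names carry a set number of unstated meaning, and the sign for Ctdsp1 turned with it: the difference was 0.22 in set 1, which holds 3 profiles of each parent, and -0.16 in the later sets, none of which holds both parents. A test of that turn did not pass (interaction, limma adjusted p = 1.00 for each host).

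Across the 4 strains, Ctdspl stood closest to a call. It averaged 8.43 ± 0.11 in ILS (SD, n = 6), 8.46 ± 0.06 in ISS (n = 6), 8.59 ± 0.06 in LXS80 (n = 6) and 8.41 ± 0.12 in LXS41 (n = 5). The LXS80 profiles had a lowest value of 8.53, a median of 8.58 and a highest value of 8.67, all above the 5 LXS41 profiles, which read 8.23, 8.50, 8.52, 8.44 and 8.38 in replicates 1 to 5. The LXS80 values overlapped those of ILS (8.28 to 8.61). How many other genes had every LXS80 profile above every LXS41 profile was not counted. limma's F test over strains missed the threshold for Ctdspl (adjusted p = 0.0512), and for Ctdsp1 (adjusted p = 0.603) and Ctdsp2 (adjusted p = 0.290), where 4668 of 20617 genes, 22.6%, passed. Ctdspl passed when LXS41 replicate 2 (adjusted p = 0.0420), LXS41 replicate 3 (adjusted p = 0.0354) or ILS replicate 4 (adjusted p = 0.0223) was left out. It moved away from the threshold without LXS80 replicate 3 (adjusted p = 0.111) or 4 (adjusted p = 0.120), and under quantile normalization of the profiles (adjusted p = 0.215), where the range of the 4 strain means was 0.11 against 0.18 log2 units as deposited. LXS80 shared no set number with another strain, so its level and its sets cannot be told apart. ILS replicate 4 stood apart in cerebellar granule cell genes, with a mean log2 level of 6.87 for the 3 listed genes, against 9.80 to 10.51 in the other 22 profiles.

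**Figure D4:**
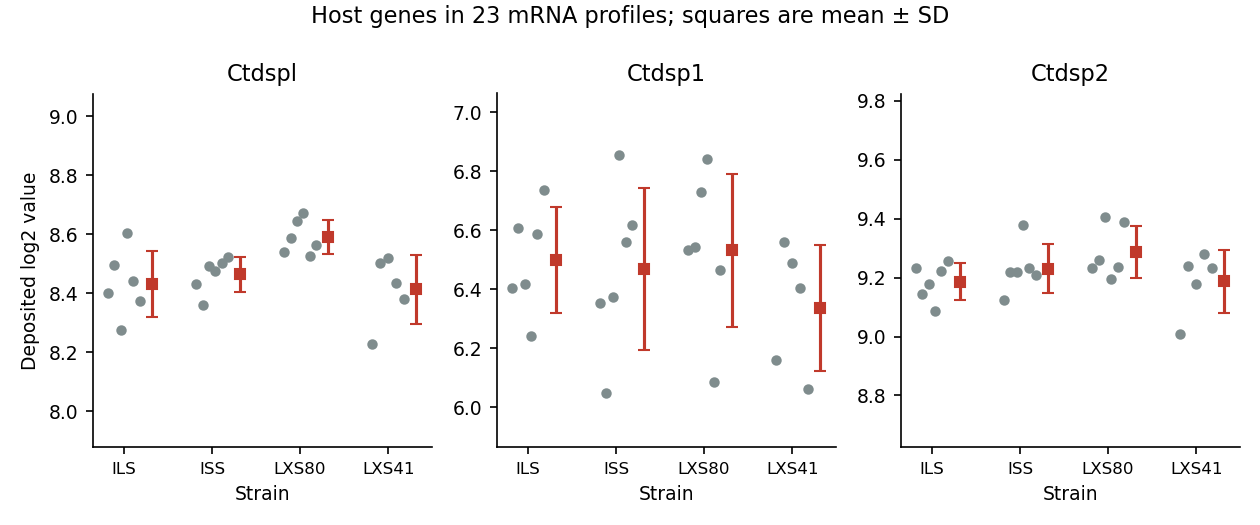
Deposited log2 values of Ctdspl, Ctdsp1 and Ctdsp2 in 23 mRNA profiles by strain, 1 grey point a profile, with the mean ± SD of each strain as a red square, each panel spanning the same range of log2 units. The strains overlap for Ctdsp1 and Ctdsp2. For Ctdspl the LXS80 points (8.53 to 8.67) lie just above those of LXS41 (8.23 to 8.52) and ISS (8.36 to 8.52) and overlap those of ILS (8.28 to 8.61).

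LXS80 and LXS41 were the strains with both a miRNA value and mRNA profiles in use here. LXS80 had 1214849 of miR-26a-5p, 63778 of miR-26b-5p and 245 of miR-26b-3p, at places 29, 17 and 21 from the top of the 59 strains. LXS41 had 1045695 of miR-26a-5p, 49558 of miR-26b-5p and 279 of miR-26b-3p, at places 42, 50 and 8. The mean of Ctdsp1 was 6.53 ± 0.26 in LXS80 (SD, n = 6) and 6.33 ± 0.21 in LXS41 (n = 5), and that of Ctdsp2 was 9.29 ± 0.09 in LXS80 and 9.19 ± 0.11 in LXS41. The 3 hosts and both 5p arms were thus higher in LXS80 by their means, and miR-26b-3p was lower, with 1 miRNA value a strain and no test of any of these differences between the 2 strains. A higher LXS80 mean was not particular to the hosts. All 5 other listed phosphatase genes were higher too, as were all listed markers of oligodendrocytes, astrocytes and microglia. All listed choroid plexus, cerebellar granule cell and liver markers were lower, and neuron, endothelial and erythroid markers went both ways. The share of all genes with a higher mean in LXS80 than in LXS41 was not counted. Under quantile normalization the range of strain means was 0.11 for Ctdspl and 0.07 for Ctdsp2, against 0.18 and 0.10 as deposited.

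The genes related to the hosts, or known to work with them, gave small counts of calls in lists too short to set against the 7.6% called of all genes. Of 5 other C-terminal domain phosphatase genes, 0 were higher and 1 was lower in ILS, with a median log2 difference of -0.01 over the list. That gene was Ctdspl2, a relative of Ctdspl, which had 7.32, 7.46 and 7.54 as its lowest, median and highest log2 values in ILS profiles, against 7.63, 7.65 and 7.77 in ISS profiles, with no overlap (difference -0.22, SE 0.05, limma adjusted p = 0.0101). Of 11 genes for REST and its corepressors, 1 was higher and 1 lower in ILS, and the median difference was 0.02. Rcor3, a corepressor, had 8.65, 8.77 and 8.79 in ILS profiles, against 8.84, 8.94 and 9.02 in ISS profiles (difference -0.18, SE 0.05, adjusted p = 0.0141), with no overlap. Hdac1, a histone deacetylase, had 6.27, 6.61 and 6.75 in ILS profiles, against 6.09, 6.23 and 6.36 in ISS profiles (difference 0.34, SE 0.10, adjusted p = 0.0367), and these ranges overlapped. Like Ctdsp1, it read near the filter level of 6 and below the profile medians of 7.11 to 7.24 in these profiles, so its detection is uncertain. The Hdac1 call was lost in 8 of 23 fits that left out 1 profile, those without ILS replicate 1, 2, 4 or 5 or ISS replicate 1, 2, 3 or 5, with adjusted p between 0.0523 and 0.0945, while the difference over all 23 such fits stayed between 0.30 and 0.39.

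Genes of the G1 to S step of the cell cycle, on which the Ctdsp phosphatases act through retinoblastoma family proteins, gave a similar count. Of 14 tested of 15 listed, 1 was higher and 1 lower in ILS, where 3.39% of all genes were higher and 4.21% lower, and the median log2 difference was 0.00. Cdkn1a, which encodes the p21 inhibitor of cyclin-dependent kinases, had 8.19, 8.38 and 8.57 in ILS profiles, against 7.51, 7.91 and 8.15 in ISS profiles, with no overlap (difference 0.50, SE 0.11, adjusted p = 0.00437). Rbl2, the retinoblastoma relative p130, had 8.61, 8.71 and 8.77 in ILS profiles, against 8.82, 8.86 and 8.98 in ISS profiles, again with no overlap (difference -0.16, SE 0.04, adjusted p = 0.00863).

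The count for genes reported in the literature as miR-26 targets was near that of all genes, 7.6% called, and nothing is read from it. Of 17 tested of 19 listed, 0 were higher and 1 was lower in ILS, and the median log2 difference was 0.03 against -0.01 for all 20617 genes. The 16 that did not pass had differences between -0.14 and 0.18. The gene that passed was Adam17, a membrane protease that sheds cytokines and receptors, with 7.19, 7.33 and 7.44 in ILS profiles, against 7.45, 7.52 and 7.73 in ISS profiles (difference -0.24, SE 0.06, adjusted p = 0.0159). Those ranges did not overlap. No miRNA value of ILS or ISS was analysed here, so these differences cannot be set beside the miR-26 level of the parents.

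The set number touched these 6 calls. With the set as a term 4 of them no longer passed. The differences of Rcor3 (-0.22, adjusted p = 0.0790) and Hdac1 (0.37, adjusted p = 0.245) were then no smaller, and those of Rbl2 (-0.10, adjusted p = 0.470) and Adam17 (-0.17, adjusted p = 0.427) were smaller, while Ctdspl2 (difference -0.28, adjusted p = 0.0302) and Cdkn1a (difference 0.76, adjusted p = 0.00119) did. Only set 1 holds both parents, so the fit with the set as a term took its differences from set 1. Set 1 alone, with 3 profiles of each parent, therefore gave the same 6 differences and is no separate check of them. There Cdkn1a passed (adjusted p = 0.00309) and the other 5 did not, with adjusted p between 0.126 and 0.632. The Ctdspl2 difference was -0.28 in both fits, against -0.22 over all sets. In the later sets alone none of the 6 passed, with adjusted p between 0.126 and 0.337, and all 6 kept their direction, with -0.31 for Adam17, -0.22 for Rbl2 and 0.24 for Cdkn1a.

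Cell type markers also moved between the parents. Of 30 marker genes tested, against the 7.6% called of all genes, 2 were higher in ILS (Slc17a7 of excitatory neurons and Aif1 of microglia) and 4 lower (Kl and Folr1 of the choroid plexus, Aqp4 of astrocytes and Mobp of oligodendrocytes). Markers of the same cell type did not always go the same way: the microglia markers Cx3cr1 (difference -0.17), Tmem119 (-0.03) and C1qa (-0.13) did not pass and were below 0 where Aif1 was above it (0.41), and the oligodendrocyte marker Mbp (0.06) did not pass beside Mobp (-0.24). The 3 choroid plexus markers together had a mean log2 level between 9.36 and 9.76 in ILS profiles, against 9.84 to 9.98 in ISS profiles, with no overlap and no marker at 0. The 5 neuron markers had 11.83 to 11.92 in ILS profiles, against 11.74 to 11.89 in ISS profiles. The part of these cell types in the calls of Ctdspl2, Rcor3, Hdac1, Cdkn1a, Rbl2 and Adam17 was not tested.

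**Figure D5:**
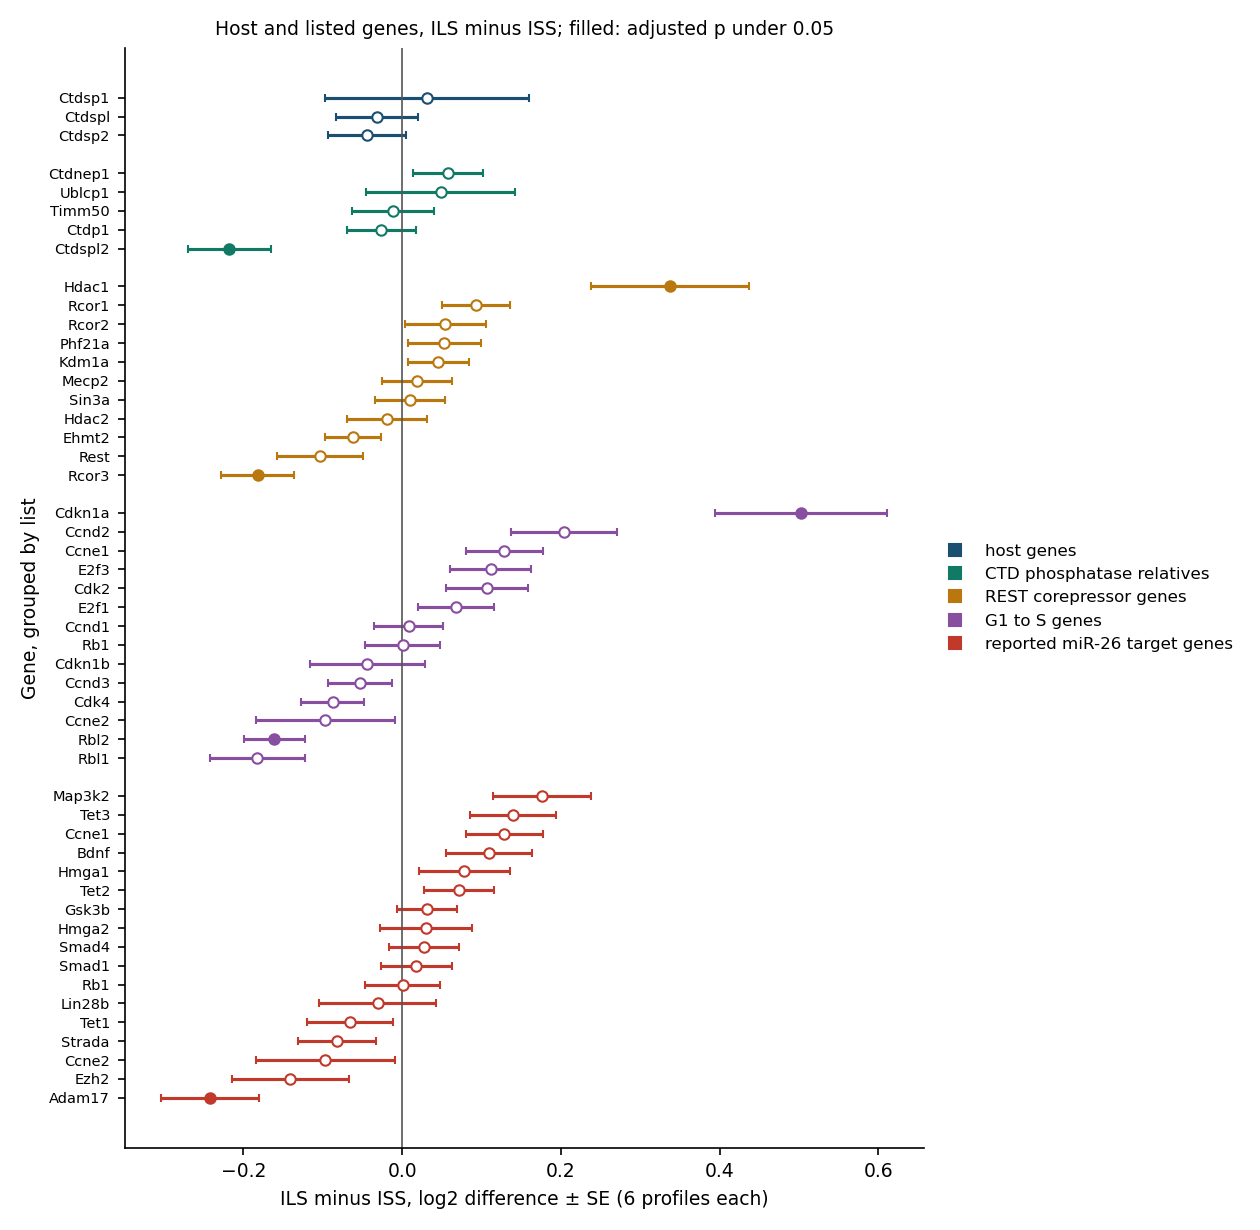
ILS minus ISS log2 difference ± SE for the 3 host genes and the listed genes, grouped and coloured by list, with 6 profiles of each parent; filled points have an adjusted p under 0.05. The 3 hosts lie near 0, and the filled points are Ctdspl2, Hdac1, Rcor3, Cdkn1a, Rbl2 and Adam17.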

How the data were processed

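Small RNA libraries were made with a TruSeq kit and size selected, per the labels' protocols. The authors deposited a table of normalized values (a signal that is never negative, 1 value per strain, summing to 12164326 to 15093719 a strain) and a variance-stabilized table of the same values on a log2 scale. The authors also deposited gene-level mRNA values on a log2 scale. Aligner, genome build, platform and the method of normalization were not given in the sources used here. Sequencing depth per library is therefore unknown, and no counting interval is given. Of 212 labelled libraries 211 were grouped by strain, and 1 was left out because its labels name 2 strains. In the mRNA file 23 columns were used, from strains with no more columns than labelled libraries. The other 376 columns were not used, because their strain had more columns than labelled libraries or their names matched no label. Profiles are numbered in column order. Normalized values were analysed as log2(value + 1), with features of a mean of at least 10 kept. mRNA genes were kept at a log2 value of at least 6 in at least 5 profiles (20617 of 27123 genes). limma 3.58.1 in R 4.3.3 (trend and robust empirical Bayes) was fitted across all features, with Benjamini-Hochberg adjustment and a threshold of 0.05, and was tested on simulated data. Correlations had 100000 permutations (scipy 1.17.1). Alternatives covered the pseudocount, the deposited scale, centring, filters, batch and set terms, subsets of strains and leaving out each profile. The members and gene lists were chosen with earlier results of these data known. Named were all members, the 5 features most like each arm, the 5 highest and 5 lowest strains, and listed genes that passed; 1 gene of the target list is not reported here.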

Additional observations from a re-analysis of the deposited data

Results flagged for a closer look

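Of 21 groups of strains or profiles checked for a value standing apart, 2 were picked out by Dixon's test at 95%, where chance picks about 1 in 20. miR-26b-3p read 308 in LXS3, a HIGH strain, where the next highest of the 8 HIGH strains read 172, a gap of 0.628 of the range. LXS3 had 3 of 4 libraries in batch 2 and 0 in batch 3, and HIGH strains had 50% of their libraries in batch 3. miR-26b-3p read 117.1 in LXS13, a MED strain, where the next lowest of the 9 MED strains read 186, a gap of 0.502 of the range. LXS13 had 2 of 3 libraries in batch 3 and 1 in batch 2, and LXS90, the strain at 186, had the same. Batch 3 held 35.3% of the libraries of MED strains. The part of the batch in either value was not tested.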

How the results depend on the processing

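Of 476 values recomputed, 431 kept their direction and their side of the threshold, or for counts stayed within 1.5 times. Against 1567 genes, the count called in ILS minus ISS fell to 496 with the set as a term. It was 294 in set 1 alone and 283 in the later sets alone. Fewer profiles entered the subsets, and the fit with the set as a term takes its differences from set 1 too. Leaving out 1 profile at a time gave 1239 to 1645 genes, and 3102 to 5057 genes in the F test over strains, the lowest without LXS41 replicate 1. The Ctdsp1 difference was -0.16 in the later sets and ran between -0.053 and 0.11 with 1 profile left out, turning in sign without ISS replicate 2 or ILS replicate 6; those of Ctdspl and Ctdsp2 ran between -0.07 and -0.00075 and between -0.07 and -0.01. The range of strain means ran between 0.16 and 0.20 for Ctdspl, between 0.13 and 0.29 for Ctdsp1 and between 0.08 and 0.12 for Ctdsp2 with 1 profile left out, and was 0.11 for Ctdspl and 0.07 for Ctdsp2 under quantile normalization. The r of miR-26a-5p with miR-26b-5p fell to 0.22 in batch 5 alone, 0.37 in batches 4 and 5 and 0.54 in batches 2 and 3. The r of miR-26b-5p with miR-26b-3p passed at 0.32 with centred strains and at 0.32 with batch shares removed, was 0.58 in batch 5 alone and -0.092 in batches 2 and 3. The r of miR-26a-5p with miR-26b-3p passed at 0.35 in the variance-stabilized table and at 0.30 with centred strains, and was -0.24 with batch shares removed, -0.41 in batch 5 alone, -0.49 in batches 4 and 5 and -0.37 in batches 2 and 3; the cause was not tested. The later sets alone, and the groups of batches 4 and 5 and of batches 2 and 3, were chosen after seeing the data. HIGH minus LOW called 0 features under each alternative run. No paired analysis was possible because the mRNA columns carry no replicate letter of the labels. The unknown depth limits what the values near or under 10 of the miR-26a 3p arms can show.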
